A study of Rattus norvegicus with 12 samples.

Results

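Astrocytes, the glial cells that surround synapses and blood vessels, were followed in the rat hippocampus through 8 genes. Gfap (ENSRNOG00000002919) and Vim (ENSRNOG00000018087) encode intermediate filament proteins and S100b (ENSRNOG00000001295) a calcium-binding protein. Slc1a2 (ENSRNOG00000005479) and Slc1a3 (ENSRNOG00000016163) encode plasma membrane transporters for glutamate and Glul (ENSRNOG00000049560) glutamine synthetase. Aqp4 (ENSRNOG00000016043) encodes a water channel and Gja1 (ENSRNOG00000000805) the gap junction protein connexin-43. The 8 genes were a set list of rat Ensembl IDs, and all of them were found among the 28959 rows of the deposited table. FPKM, the unit of the table, is a read count scaled by the length of the gene and the size of the library. All 8 were among the 15253 rows tested, whose mean over the libraries reached 0.5 FPKM. RNA was sequenced from hippocampi of Sprague Dawley rats, labelled 6 to 7 weeks old, in 4 groups of 3 libraries. CUMS stands for chronic unpredictable mild stress, in which the kind of stressor keeps changing and which serves to model depression. CUMS-Alb, CUMS-Flx and CUMS-Sal rats were kept under it for 5 weeks, and Ctrl-Sal rats were not. During the last 7 days CUMS-Alb rats were given albiflorin, a monoterpene glycoside of peony root, at 7 mg/kg/d, CUMS-Flx rats the serotonin reuptake inhibitor fluoxetine, and CUMS-Sal and Ctrl-Sal rats saline. For fluoxetine the labels of the samples give 10 mg/kg/d, where the design text gives 7 mg/kg/d. No label ties a library to a single rat, so the p-values measure only the spread between libraries, which may be partly technical.

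In the brain, glutamate released at synapses is taken up mainly by astrocytes, through the transporter proteins GLT-1 (Slc1a2) and GLAST (Slc1a3). Inside the astrocyte, glutamine synthetase turns glutamate into glutamine, which is returned to neurons. Filaments of GFAP and vimentin are used as a measure of the reactive state of astrocytes, while aquaporin-4 and connexin-43 are concentrated at the end-feet on vessels and at contacts between astrocytes. Fewer astrocytes and less RNA per astrocyte cannot be told apart in RNA of whole tissue.

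The library totals behind the FPKM, worked out from its step size, ran from 14735953 to 18109623 reads, and 99.99% of them lay in the rows of the table. Ctrl-Sal replicate 2 stood apart from the others on the first principal component, which held 36.0% of the variance, at -44.7 against -12.2 to 15.1 for the other 11 libraries. The 8 genes together took 0.51% to 0.58% of the reads of a library. Their share averaged 0.563% ± 0.011 in CUMS-Alb, 0.526% ± 0.0056 in CUMS-Flx, 0.550% ± 0.032 in CUMS-Sal and 0.556% ± 0.013 in Ctrl-Sal (SD, n = 3 each).

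Per length, S100b and Glul were the most abundant of the 8 and Vim by far the least. S100b averaged 731 FPKM over the 12 libraries and Glul 653 FPKM, and S100b was the higher of the pair in 9 of 12 libraries. Gfap (210.1 FPKM) and Gja1 (208 FPKM) lay close together, with Gfap ahead in 8 of 12 libraries, as did Slc1a3 (188 FPKM) and Slc1a2 (178 FPKM), with Slc1a3 ahead in 7 of 12, so neither order was steady. Aqp4, at 145 FPKM, was below Slc1a2 in 11 of 12 libraries, and Vim, at 19.0 FPKM, was the lowest in 12 of 12. The level of Slc1a2 is that of a row of 882 bp, a part of the gene, so its place in this order holds for that part only. By mean level, 7 of the 8 genes stood above 97.1% or more of the tested rows, and Vim above 71.8%. The plot of FPKM by library shows these levels with every library as a point.

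**Figure D1:**
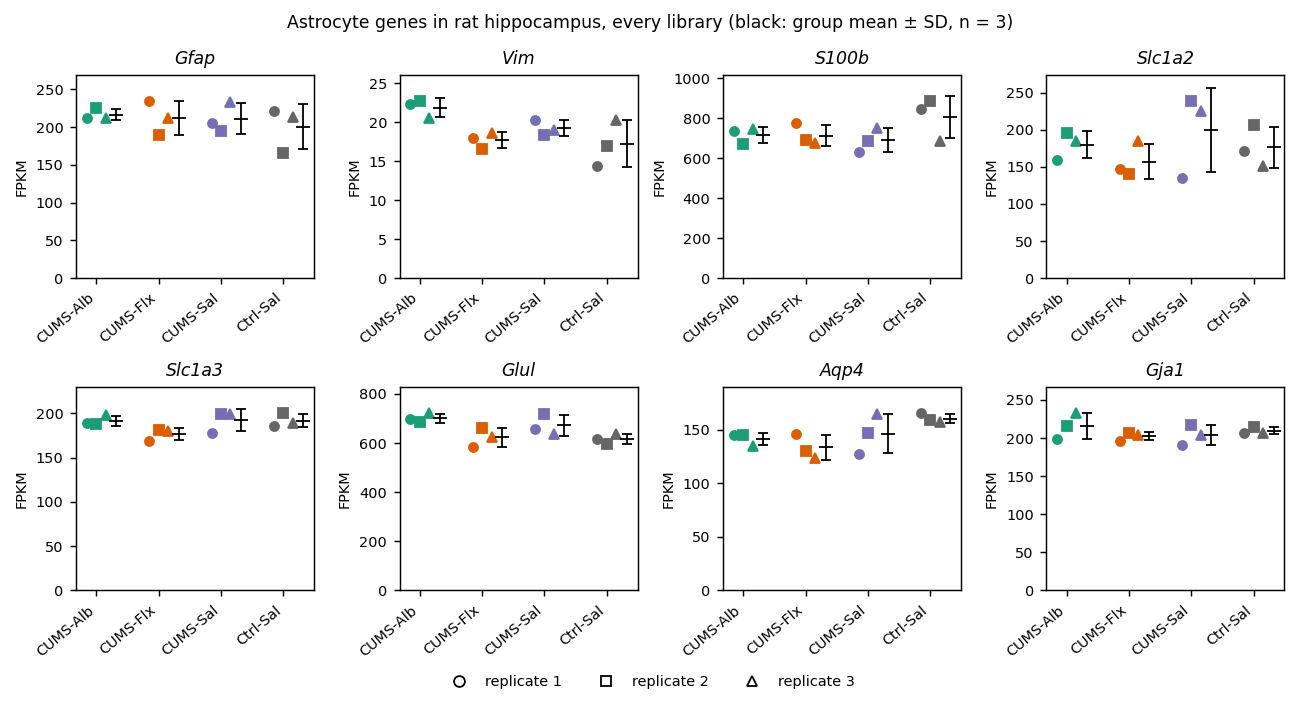
FPKM (y axis, starting at 0) of the 8 genes in each of 12 libraries, by group (x axis); symbols mark the replicate numbers and black bars the group mean ± SD (n = 3). All groups overlap for Gfap, S100b and Slc1a2; the CUMS-Alb libraries lie highest for Vim, at 20.5 to 22.7 FPKM, and the CUMS-Sal libraries are the most widely spread for Slc1a2, at 135 to 238 FPKM.

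None of the 8 genes passed the test in any of the 6 comparisons between groups. Values were compared with limma on log2(FPKM + 0.5) over all tested rows, with a threshold of 0.05 on the Benjamini-Hochberg adjusted p. In CUMS-Sal against Ctrl-Sal 0 of 8 were called, where 9.19% of all rows were, and in CUMS-Alb against Ctrl-Sal 0 of 8, where 2.5% of all rows were. In CUMS-Flx against Ctrl-Sal 0.0524% of rows were called, in CUMS-Alb against CUMS-Flx 0.00656%, and in both CUMS-Flx and CUMS-Alb against CUMS-Sal 0.0%, again with 0 of the 8 genes in each. The shares against Ctrl-Sal were not steady. With limma fitted to only the groups compared, 0 rows were called higher and 0 lower in CUMS-Sal, and 0 and 1 in CUMS-Alb. Without Ctrl-Sal replicate 2, 334 of 15253 rows were called higher and 35 lower in CUMS-Sal, and 5 and 1 in CUMS-Alb. A limma-voom test on the recovered reads also called 0 of the 8 in each comparison. It called 11.8% of its rows in CUMS-Sal against Ctrl-Sal, 7.78% in CUMS-Alb against Ctrl-Sal, 0.344% in CUMS-Flx against Ctrl-Sal, 0.00638% in CUMS-Alb against CUMS-Flx and 0.0% in both drug groups against CUMS-Sal. At an unadjusted p under 0.05 stood 2 genes in CUMS-Alb against Ctrl-Sal (Vim and Glul), 2 in CUMS-Alb against CUMS-Flx (Vim and Glul again), 1 in CUMS-Flx against Ctrl-Sal (Aqp4) and 0 in the other comparisons. Of all rows, 27.4% were past that value in CUMS-Alb against Ctrl-Sal, 4.98% in CUMS-Alb against CUMS-Flx, 17.5% in CUMS-Flx against Ctrl-Sal, 30.0% in CUMS-Sal against Ctrl-Sal, 9.98% in CUMS-Flx against CUMS-Sal and 3.66% in CUMS-Alb against CUMS-Sal. Vim and Glul were also under an adjusted p of 0.1 in CUMS-Alb against Ctrl-Sal, as were 15.6% of all rows. A test for a difference of any kind over the 4 groups called 0 of the 8, against 0.0459% of all rows, and its smallest adjusted p was 0.168, for Vim. Vim and Glul were at an unadjusted p under 0.05 in it, as were 23.2% of all rows. The 3 comparisons with Ctrl-Sal share its libraries, as the 3 with CUMS-Sal share those of CUMS-Sal, so their results are not independent.

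**Figure D2:**
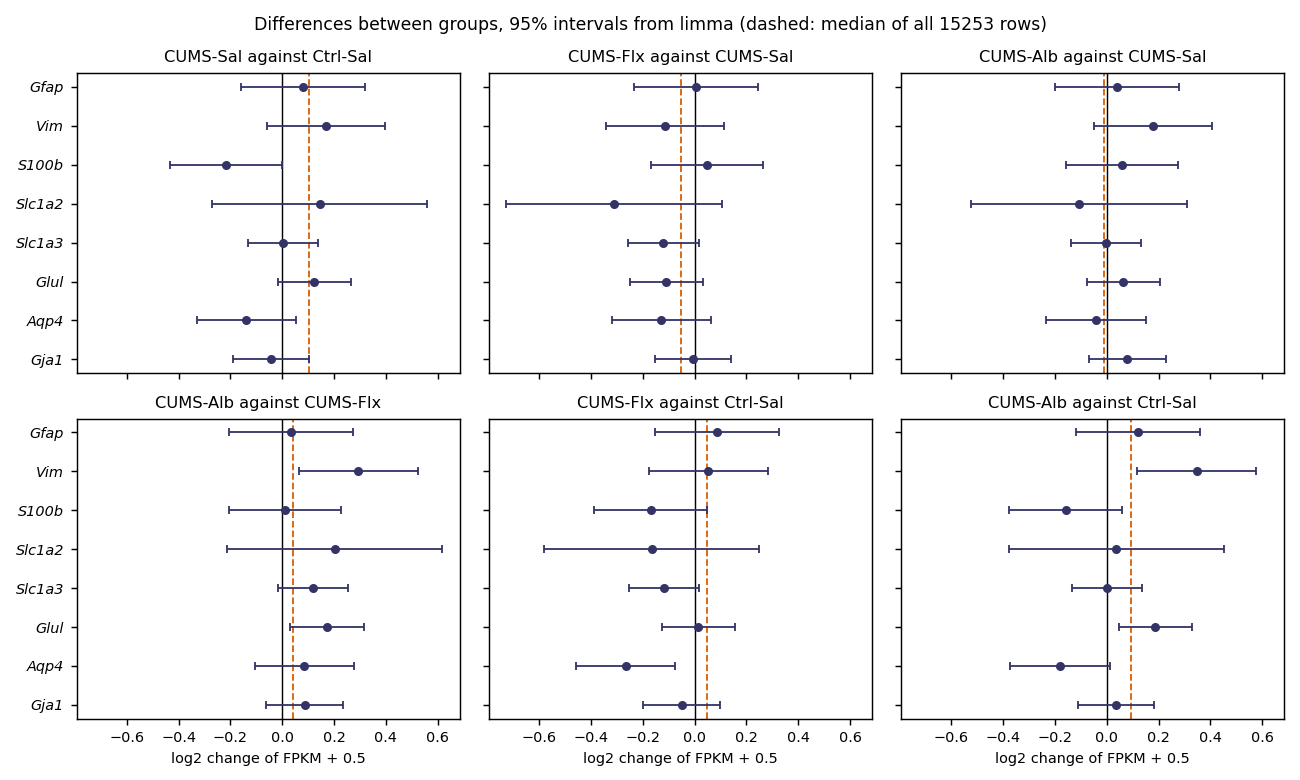
Log2 change of FPKM + 0.5 (x axis) of each gene (y axis) in the 6 comparisons, with 95% intervals from limma; the dashed line is the median of all 15253 tested rows. Intervals are narrowest for Slc1a3, from -0.13 to 0.14 in CUMS-Sal against Ctrl-Sal, and widest for Slc1a2, from -0.27 to 0.56.

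The glutamate transporters differed from each other in how far their libraries spread. Slc1a3 had 189, 188 and 198 FPKM in the CUMS-Alb libraries, 169, 181 and 181 FPKM in CUMS-Flx, 178, 199.8 and 199 FPKM in CUMS-Sal, and 186, 200.1 and 189 FPKM in Ctrl-Sal. All 3 CUMS-Flx libraries were below every CUMS-Alb and every Ctrl-Sal library, and the CUMS-Sal libraries overlapped with each of the other groups. Between CUMS-Sal and Ctrl-Sal the log2 change of Slc1a3 was 0.0021 (95% interval -0.13 to 0.14, adjusted p = 0.986), an interval that runs from -8.81% to 9.99% in FPKM. The sign depended on the scaling: with library medians of deviation centred at 0 it was -0.10 (adjusted p = 0.338). Against CUMS-Flx, Slc1a3 stood 0.12 log2 units higher in CUMS-Alb (95% interval -0.017 to 0.25, adjusted p = 0.955), or 0.075 after that centring, and CUMS-Flx stood at a log2 change of -0.12 against Ctrl-Sal (95% interval -0.25 to 0.017, adjusted p = 0.349).

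Slc1a2 had 159.7, 196 and 185 FPKM in CUMS-Alb, 147, 139.9 and 184 FPKM in CUMS-Flx, 135, 238 and 225 FPKM in CUMS-Sal, and 172, 206 and 151 FPKM in Ctrl-Sal. Both the lowest and the highest library of the 12 were CUMS-Sal libraries, replicates 1 and 2, and all groups overlapped. Its log2 change was 0.14 in CUMS-Sal against Ctrl-Sal (95% interval -0.27 to 0.56, adjusted p = 0.649), an interval of -17.1% to 47.5% in FPKM, so a fall or a rise within that range is compatible with these data. In CUMS-Flx against CUMS-Sal it was -0.31 (95% interval -0.73 to 0.11, adjusted p = 0.606), and in CUMS-Alb against CUMS-Sal -0.11 (95% interval -0.52 to 0.31, adjusted p = 1.0). The values turned on single CUMS-Sal libraries: without replicate 1 the changes were 0.40, -0.57 and -0.37 in these 3 comparisons, without replicate 2 they were -0.0061, -0.16 and 0.043, and without replicate 3 they were 0.036, -0.20 and 0.00069. The reads of Slc1a2 were counted over only 882 bp, the length recovered from its FPKM steps and shorter than the coding sequence of the full-length transporter, so the row covers a part of the gene. It held 1861 to 3235 reads per library, against 10378 to 12908 for Slc1a3, whose row is 3780 bp long.

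The promoter windows of the 2 transporter genes are shown because these 2 were the pair of the 8 whose levels followed each other most closely across libraries. Both are from RefSeq in the rat build GRCr8 (the reads were aligned to rn6), run 5′ to 3′ on the gene's strand, and hold 250 bases before the first listed start and 50 after it. The reference lists 2 windows for Slc1a2 and 3 for Slc1a3, and only the first of each was searched. Capitals mark matches, on either strand, to TATAAA (the TATA box), GGGCGG (a GC box), CCAAT (the CCAAT box) or TTCNNNGAA (a STAT palindrome).
Slc1a2, chr3:109459859-109460158, plus strand: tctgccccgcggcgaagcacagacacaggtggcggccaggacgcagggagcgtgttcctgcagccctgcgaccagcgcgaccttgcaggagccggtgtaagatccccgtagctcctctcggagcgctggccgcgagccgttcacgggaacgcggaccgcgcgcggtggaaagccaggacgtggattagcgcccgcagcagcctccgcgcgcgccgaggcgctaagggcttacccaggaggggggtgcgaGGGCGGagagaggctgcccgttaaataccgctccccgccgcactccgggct
Slc1a3, chr2:59557759-59558058, minus strand: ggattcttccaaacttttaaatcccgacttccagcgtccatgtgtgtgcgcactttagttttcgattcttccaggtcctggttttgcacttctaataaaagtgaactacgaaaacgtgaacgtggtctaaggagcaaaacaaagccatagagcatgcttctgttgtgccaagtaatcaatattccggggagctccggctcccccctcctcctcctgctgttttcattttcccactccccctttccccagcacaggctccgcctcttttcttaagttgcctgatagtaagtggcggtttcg
The windows were unlike in base composition. The Slc1a2 window was 71.0% G and C and held 1 match, a GC box that begins 1 base before the start. The Slc1a3 window was 48.3% G and C, near the median of 51.7% over 33469 rat promoter windows of the same length, and none of the 4 letter strings was in it. Of all windows, 14.2% held TATAAA, 33.1% GGGCGG, 37.5% CCAAT and 8.87% TTCNNNGAA. A match is only a run of letters and no sign of binding.

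Across the 12 libraries, Slc1a2 and Slc1a3 correlated at Pearson's r = 0.774 on the log2 scale (permutation p = 0.0033, 0.0924 after Benjamini-Hochberg adjustment over the 28 pairs of the 8 genes) and Spearman's rho = 0.79 (permutation p = 0.00321, adjusted 0.0899). Thus the highest of the 28 correlations did not pass the correction. The value was 0.703 without the 2 libraries farthest from the median of Slc1a2, 0.753 without Ctrl-Sal replicate 2, and 0.781 for deviations from the group means. Next came Slc1a3 with Gja1, at r = 0.676 (permutation p = 0.015, adjusted 0.188; rho = 0.601, permutation p = 0.042, adjusted 0.294), and S100b with Aqp4, at r = 0.656 (permutation p = 0.0201, adjusted 0.188; rho = 0.643, permutation p = 0.027, adjusted 0.294). Without the 2 libraries farthest from the median of the first gene these 2 values were 0.625 and 0.476. Of the 28 pairs 18 had an r above 0, with a median of 0.164 and a range of -0.572 (Vim with S100b) to 0.774, so the 8 genes did not go up and down together as a set. All values are two-sided, from 100000 resamples, and the labels name no batch within which they could be recomputed.

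**Figure D3:**
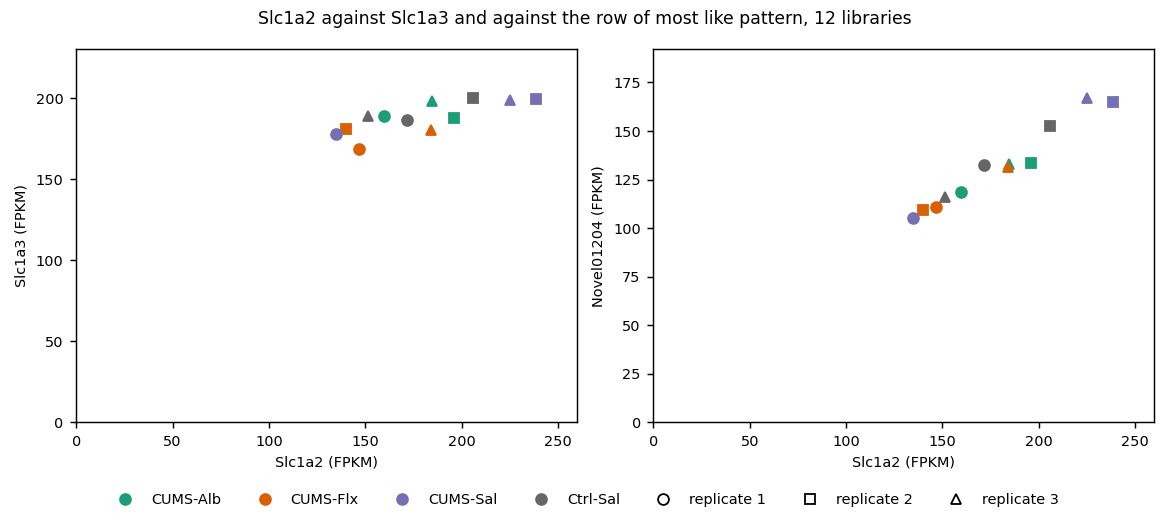
FPKM of Slc1a2 (x axis) against FPKM of Slc1a3 (left, y axis) and of Novel01204 (right, y axis) in 12 libraries; colours mark groups and symbols replicate numbers. Slc1a2 runs from 135 to 238 FPKM where Slc1a3 runs from 169 to 200.1 FPKM, and Novel01204 follows Slc1a2 closely, at r = 0.981.

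Closer to Slc1a2 than any other gene of the list was a row without an Ensembl ID. For each of the 8 genes the row of highest Pearson correlation over the 12 libraries was sought among the 15245 other tested rows, as a description with no p since it is the highest of many. For Slc1a2 it was Novel01204, at r = 0.981, a row of 8517 bp at a mean of 131 FPKM. Novel01204 had 119, 133 and 133 FPKM in CUMS-Alb, 111, 109 and 132 FPKM in CUMS-Flx, 105, 165 and 167 FPKM in CUMS-Sal, and 132, 153 and 116 FPKM in Ctrl-Sal. Its level per length was 0.682 to 0.782 times that of Slc1a2 in each of the 12 libraries, and it rests on 14049 to 21888 reads per library. As the row was chosen for its likeness, a shared pattern was fixed by the choice, and whether it belongs to the same locus as the 882 bp row of Slc1a2 is not known here. The rows most like the other genes had a lower r, from 0.885 for Gfap (ENSRNOG00000050034) to 0.954 for Glul (ENSRNOG00000028594). The row most like Vim, ENSRNOG00000013594 (r = 0.912), had a mean of 19.1 FPKM, and that most like Gfap had 1.11 FPKM.

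Glul, which closes the uptake pathway by making glutamine, was the only one of the 8 whose CUMS-Sal libraries lay wholly apart from the Ctrl-Sal libraries, where 31.1% of all rows did so. Glul had 699, 685 and 721 FPKM in CUMS-Alb, 585, 660.2 and 623 FPKM in CUMS-Flx, 659, 720.2 and 637 FPKM in CUMS-Sal, and 617, 597 and 636 FPKM in Ctrl-Sal. The CUMS-Alb and CUMS-Sal libraries were all above the Ctrl-Sal libraries, CUMS-Sal replicate 3 by little, while CUMS-Flx overlapped with Ctrl-Sal. The log2 change was 0.12 in CUMS-Sal against Ctrl-Sal (95% interval -0.018 to 0.26, adjusted p = 0.223), close to the median of 0.10 of all rows, 0.073 without CUMS-Sal replicate 2, and 0.020 with library medians of deviation centred at 0. It was 0.19 in CUMS-Alb against Ctrl-Sal (95% interval 0.046 to 0.33, adjusted p = 0.0933), or 0.094 (adjusted p = 0.369) after that centring, and 0.17 in CUMS-Alb against CUMS-Flx (95% interval 0.032 to 0.31, adjusted p = 0.955). Without Ctrl-Sal replicate 2, Glul in CUMS-Alb against Ctrl-Sal stood at 0.16 (adjusted p = 0.22).

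Among the filament genes, Gfap did not set the groups apart and Vim stood highest in CUMS-Alb. Gfap had 212, 225 and 212 FPKM in CUMS-Alb, 234, 190.0 and 212 FPKM in CUMS-Flx, 205, 195 and 234 FPKM in CUMS-Sal, and 222, 166 and 214 FPKM in Ctrl-Sal. Every group overlapped with every other, and the lowest value was that of Ctrl-Sal replicate 2. The log2 change of Gfap in CUMS-Sal against Ctrl-Sal was 0.081 (95% interval -0.16 to 0.32, adjusted p = 0.659); without that library it was -0.048 (adjusted p = 0.793), and with library medians of deviation centred at 0 it was -0.022 (adjusted p = 0.92), so no direction can be given.

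Vim had 22.3, 22.7 and 20.5 FPKM in CUMS-Alb, 18.0, 16.6 and 18.7 FPKM in CUMS-Flx, 20.3, 18.4 and 19.0 FPKM in CUMS-Sal, and 14.3, 17.0 and 20.3 FPKM in Ctrl-Sal. The CUMS-Alb libraries lay above all libraries of the other groups, the nearest of which was Ctrl-Sal replicate 3. In CUMS-Alb against Ctrl-Sal the log2 change was 0.35 (95% interval 0.12 to 0.58, adjusted p = 0.0684), a fold of 1.27 on FPKM + 0.5, and with library medians of deviation centred at 0 it was 0.25 (adjusted p = 0.156). It was 0.29 in CUMS-Alb against CUMS-Flx (95% interval 0.064 to 0.52, adjusted p = 0.955), 0.18 in CUMS-Alb against CUMS-Sal (95% interval -0.050 to 0.41, adjusted p = 1.0) and 0.17 in CUMS-Sal against Ctrl-Sal (95% interval -0.061 to 0.40, adjusted p = 0.306). Ctrl-Sal replicate 3 decided the call: without it Vim was called higher both in CUMS-Alb (log2 change 0.47, adjusted p = 0.0159) and in CUMS-Sal (0.29, adjusted p = 0.0459) than in Ctrl-Sal. In that fit 15.4% of all rows were called in CUMS-Alb against Ctrl-Sal and 17.3% in CUMS-Sal against Ctrl-Sal. Without Ctrl-Sal replicate 1 the 2 values for Vim were 0.23 (adjusted p = 0.146) and 0.046 (adjusted p = 0.782), and in CUMS-Sal against Ctrl-Sal the value was 0.065 with library medians of deviation centred at 0 and 0.017 with library medians set equal. Without Ctrl-Sal replicate 2, Vim in CUMS-Alb against Ctrl-Sal stood at 0.34 (adjusted p = 0.151). The reads of Vim were the fewest of the 8, at 392 to 721 per library. In brain, vimentin is also made by cells of vessels and meninges.

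S100b had 734, 672 and 746 FPKM in CUMS-Alb, 774, 690.4 and 674 FPKM in CUMS-Flx, 632, 685 and 753 FPKM in CUMS-Sal, and 845, 885 and 684 FPKM in Ctrl-Sal. Ctrl-Sal replicates 1 and 2 were above all libraries of the stressed groups, and Ctrl-Sal replicate 3 lay among them. In CUMS-Sal against Ctrl-Sal the log2 change was -0.22 (95% interval -0.43 to 0.00068, adjusted p = 0.168), and -0.32 with library medians of deviation centred at 0 (adjusted p = 0.0925). Without Ctrl-Sal replicate 3 S100b was called lower in CUMS-Sal, at -0.33 (adjusted p = 0.0272), in the fit that called 17.3% of all rows, and without Ctrl-Sal replicate 2 it stood at -0.14 (adjusted p = 0.416).

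Of the channel genes, Aqp4 was lower in the libraries of stressed, drug-treated rats than in Ctrl-Sal and Gja1 varied little, neither passing the test. Aqp4 had 145, 145 and 135 FPKM in CUMS-Alb, 146, 131 and 124 FPKM in CUMS-Flx, 128, 147 and 164 FPKM in CUMS-Sal, and 165, 159 and 157 FPKM in Ctrl-Sal. All 6 libraries of drug-treated rats were below the 3 Ctrl-Sal libraries, and the CUMS-Sal libraries overlapped with all other groups. The drug-treated rats were also stressed, so drug and stress cannot be told apart in their comparisons with Ctrl-Sal. Of all rows, 5.75% lay wholly lower in CUMS-Flx than in Ctrl-Sal and 6.37% in CUMS-Alb. The share that did so in both drug groups was not worked out. The log2 change of Aqp4 was -0.27 in CUMS-Flx (95% interval -0.46 to -0.074, adjusted p = 0.178), -0.18 in CUMS-Alb (95% interval -0.37 to 0.011, adjusted p = 0.209) and -0.14 in CUMS-Sal (95% interval -0.33 to 0.054, adjusted p = 0.318), each against Ctrl-Sal. With library medians of deviation centred at 0 these values were -0.32, -0.27 and -0.24, at adjusted p = 0.152, 0.11 and 0.127. In CUMS-Sal against Ctrl-Sal the value was -0.043 without CUMS-Sal replicate 1 and -0.23 without CUMS-Sal replicate 3. Against CUMS-Sal, Aqp4 in CUMS-Flx stood at -0.13 (95% interval -0.32 to 0.064, adjusted p = 0.65). In CUMS-Alb against CUMS-Sal it stood at -0.042 (95% interval -0.23 to 0.15), and at 0.045 without CUMS-Sal replicate 3.

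Gja1 had 199, 215 and 232 FPKM in CUMS-Alb, 197, 207 and 204 FPKM in CUMS-Flx, 191, 217 and 203 FPKM in CUMS-Sal, and 207, 215 and 207 FPKM in Ctrl-Sal. The CUMS-Flx libraries all lay below the Ctrl-Sal libraries, but by less than the spread within either group. The log2 change was -0.050 in CUMS-Flx against Ctrl-Sal (95% interval -0.20 to 0.098, adjusted p = 0.75) and -0.043 in CUMS-Sal against Ctrl-Sal (95% interval -0.19 to 0.10, adjusted p = 0.712). With library medians of deviation centred at 0 these 2 values were -0.10 and -0.15, and with library medians set equal they were -0.13 and -0.19. In CUMS-Sal against Ctrl-Sal Gja1 stood at 0.0035 without CUMS-Sal replicate 1 and at -0.089 without CUMS-Sal replicate 2.

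Counted over the 8 genes, groups lay wholly apart in 0 to 3 of them, depending on the comparison, numbers too small to set against the shares of all rows. They did so in 3 genes in CUMS-Alb against Ctrl-Sal (Vim and Glul higher, Aqp4 lower), where 31.0% of rows did (24.6% higher, 6.37% lower), in 3 in CUMS-Flx against Ctrl-Sal (Slc1a3, Aqp4 and Gja1 lower), where 17.7% did (5.75% lower), and in 3 in CUMS-Alb against CUMS-Flx (Vim, Slc1a3 and Glul higher), where 13.7% did (10.6% higher). The counts were 1 in CUMS-Sal against Ctrl-Sal (Glul higher, as in 25.3% of rows), 1 in CUMS-Alb against CUMS-Sal (Vim higher, as in 4.75% of rows, with 11.3% in either direction) and 0 in CUMS-Flx against CUMS-Sal (17.9% of rows). The median log2 change of the 8 genes was 0.042 in CUMS-Sal against Ctrl-Sal, where the median of all rows was 0.10, and -0.084 in CUMS-Flx against Ctrl-Sal, where it was 0.048. In CUMS-Alb against CUMS-Flx 8 of 8 log2 changes were above 0, as were 65.1% of those of all rows, with a median of 0.10 against 0.042 for all rows. With library medians of deviation centred at 0, or library medians set equal, it was 6 of 8, Gfap and S100b being below 0. Leaving out CUMS-Flx replicate 2 also gave 6 of 8 (Gfap and S100b below 0), and leaving out CUMS-Alb replicate 1, CUMS-Alb replicate 3 or CUMS-Flx replicate 3 gave 7 of 8 (S100b below 0).

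Ratios between genes of 1 library do not depend on the scaling between libraries. The ratio of Slc1a2 to Slc1a3 per length lay at 0.844 to 1.04 in CUMS-Alb and 0.774 to 1.02 in CUMS-Flx. It lay at 0.758 to 1.19 in CUMS-Sal and 0.801 to 1.03 in Ctrl-Sal, so all groups overlapped. As the row of Slc1a2 covers a part of the gene (882 bp), ratios with Slc1a2 refer to that part and not to the whole transporter. The ratio of Gfap to Vim lay at 9.50 to 10.4 in CUMS-Alb, 11.4 to 13.1 in CUMS-Flx, 10.1 to 12.3 in CUMS-Sal and 9.78 to 15.5 in Ctrl-Sal. It was lower in all 3 CUMS-Alb libraries than in all 3 CUMS-Flx libraries. The ratio of Gja1 to Aqp4 lay at 1.37 to 1.73 in CUMS-Alb, 1.34 to 1.65 in CUMS-Flx, 1.24 to 1.49 in CUMS-Sal and 1.25 to 1.35 in Ctrl-Sal, above the Ctrl-Sal range in every CUMS-Alb library. A higher ratio was not particular to CUMS-Alb, as the geometric mean was 1.52 in both CUMS-Alb and CUMS-Flx. It was 1.40 in CUMS-Sal and 1.31 in Ctrl-Sal. The ratio of Glul to Slc1a2 lay at 3.50 to 4.38 in CUMS-Alb, 3.39 to 4.72 in CUMS-Flx, 2.83 to 4.89 in CUMS-Sal and 2.90 to 4.20 in Ctrl-Sal. In all other comparisons of these ratios the groups overlapped. How often groups lie apart in ratios of other genes was not worked out, so both separations are descriptions only.

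The spread between libraries of a group was larger than counting error for every one of the 8 genes. Slc1a3 and Glul were the steadiest, with a coefficient of variation within groups of 4.51% and 4.84%, where counting error alone gives 0.933% and 0.619%. Slc1a2 was the least steady, at 18.6% against 2.01% from counting, and its within-group SD of 0.28 log2 units was above that of 89.1% of the tested rows. Gja1 stood at 5.36%, Aqp4 at 8.04%, S100b at 9.19%, Vim at 9.98% and Gfap at 10.4%. Counting error was nearest to the full spread for Vim, at 4.22%, where the spread was 2.36 times as large.

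**Figure D4:**
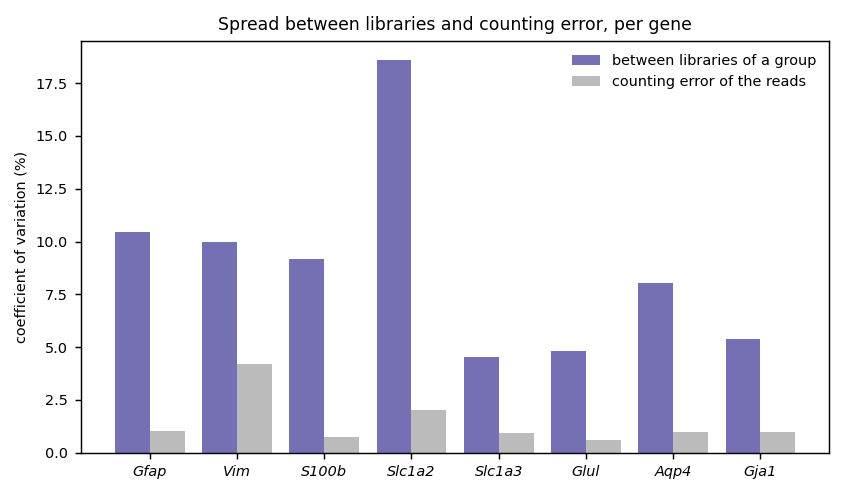
Coefficient of variation in percent (y axis, from 0) between libraries of a group, pooled over the 4 groups, beside that expected from counting error of the recovered reads, for each of the 8 genes (x axis). Slc1a2 stands highest at 18.6%, and Slc1a3 lowest at 4.51%.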

How the data were processed

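The authors deposited a table of FPKM with 28959 rows and a column for each of the 12 samples. The header names no unit, and FPKM was read from the values. TopHat2 and rat build rn6 are named per the submitters' processing notes; the sources used here do not give the counter, the annotation release or the strand setting, so reads of overlapping genes cannot be set apart. Gene names of the 8 IDs come from the list itself: 0 IDs of the table matched the reference, and further astrocyte, glutamate and cell type lists were therefore not used. The 8 genes, lists and tests were chosen with earlier results of these data known.

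Whole reads (within 0.0001) and row lengths were recovered from the FPKM steps for 22737 of 22737 rows above 0. Limma 3.58.1 (R 4.3.3), with trend and robust settings, fitted log2(FPKM + 0.5) of all 12 samples, 1 coefficient per group, over the 15253 rows whose mean reached 0.5 FPKM, and adjusted p-values of genes come from it unless an alternative is named. Fold changes refer to FPKM + 0.5. The recovery was tested on simulated libraries and returned 3 of 3 totals and 4141 of 4142 rows of at least 10 reads. Limma was run on simulated reads with the same added spread for every gene and no library standing apart. That run therefore gives no error rate for these data. Log2 changes are printed for all 8 genes in CUMS-Sal against Ctrl-Sal, elsewhere for genes at an unadjusted p under 0.05 or with groups that do not overlap, and for Slc1a2 and Aqp4 in each drug against saline. Correlations used permutation in numpy 2.4.6 (Python 3.11.15). Intervals from counting cover counting error only. Alternatives were other pseudocounts, filters, scalings and thresholds, limma-voom on the recovered reads, a replicate block, and leaving out each library.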

Additional observations from a re-analysis of the deposited data

How the results depend on the processing

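Of the 8 genes 0 were called in any comparison under the main settings. At an adjusted p under 0.1, 2 were called in CUMS-Alb against Ctrl-Sal (Vim and Glul), as were 15.6% of all rows. Without Ctrl-Sal replicate 2 neither gene was under 0.1 (adjusted p = 0.151 for Vim and 0.22 for Glul), and 486 of 15253 rows were. Leaving out 1 library gave 0 to 1 in CUMS-Alb against Ctrl-Sal and 0 to 2 in CUMS-Sal against Ctrl-Sal, the highest without Ctrl-Sal replicate 3 in both, where 15.4% and 17.3% of all rows were called (2.5% and 9.19% with all libraries). Of 48 log2 changes, 26 kept their sign under every alternative and 22, none over 0.145 in size, changed it at least once; the cause was not tested. In CUMS-Sal against Ctrl-Sal, with library medians set equal, log2 changes were -0.071 for Gfap, -0.0069 for Slc1a2, -0.15 for Slc1a3 and -0.028 for Glul; with median deviations set to 0, -0.022 for Gfap and -0.10 for Slc1a3; and after quantile normalization -0.040 for Slc1a3. Leaving out 1 library, they ran from -0.048 to 0.16 for Gfap, -0.0061 to 0.40 for Slc1a2, -0.027 to 0.057 for Slc1a3 and -0.089 to 0.0035 for Gja1, and in CUMS-Alb against CUMS-Sal from -0.37 to 0.043 for Slc1a2. Libraries of the same replicate number did not deviate together (correlations of -0.159 to 0.127), and a fit with the replicate number as a block called 0 of the 8 in each comparison. The spread between libraries was 2.36 times counting error for Vim and at least 4.83 times for the other 7 genes.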
